A study of Danio rerio with 16 samples.

Results

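The uncoupling carriers ucp1, ucp2 and ucp3 were followed across livers of zebrafish larvae. They are 3 of the 32057 genes in the deposited count table, each on a single row, and were taken by their gene names (ENSDARG00000023151, ENSDARG00000043154 and ENSDARG00000091209). All 3 passed the filter on low counts, as did 17799 genes in all. The genes were selected on their counts in these libraries, with earlier results of the same data known, so their levels and differences are given as a description, with no test.

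Each library held dissected livers of 30 larvae, and each of the 8 groups had 2 libraries. Wild-type larvae were kept under conditions labelled normal at 4 and 5 dpf (days post fertilization). At 6 dpf they were fasted, alone or with ethanol at a dose and duration not given in the sources used here. At 7 dpf they were fasted or fed, and a further fed group carries the word ventral in its labels without a further description. The remaining group was fasted at 6 dpf and carried Tg(fabp10a:GCaMP6s), a calcium reporter driven by the promoter of the hepatocyte gene fabp10a. The labels do not say whether libraries came from separate clutches, so the spread between them may be technical.

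Uncoupling proteins belong to the slc25 family of carriers in the inner mitochondrial membrane. Ucp1 of mammals lets protons pass back into the matrix without making ATP, which releases heat in brown fat, and fatty acids activate it while purine nucleotides inhibit it. Ucp2 and Ucp3 of mammals have less settled roles. Ucp2 is found in many tissues and has been linked to the export of metabolites and to lower production of reactive oxygen, and Ucp3 is best known from skeletal muscle and brown fat. Fish have no brown fat, and in carp ucp1 is a gene of the liver. In the RefSeq gene table, which is for another zebrafish assembly, ucp3 and ucp2 are direct neighbours and ucp1 stands elsewhere.

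Libraries held between 18995692 and 28033476 counts. The 16 hepatocyte markers took 9.06% to 20.2% of counts in a library, against 0.00921% to 1.03% for 14 exocrine pancreas markers (of 16 listed) and 0.0224% to 0.542% for 14 skin markers. Markers of 5 further cell types took at most 0.355% (intestine), 0.197% (biliary), 0.108% (red blood cell), 0.102% (endothelium) and 0.00667% (leukocyte). EGFP, which the authors counted as a feature, had 136106 and 43968 counts in the GCaMP libraries, 38 and 38 in those of 6 dpf fasted wild type and 0 in all others. In these bulk samples, fewer cells of a type and less RNA per cell cannot be told apart.

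ucp1 was an abundant transcript in every library and took the largest share of counts in fasted livers. At 4 dpf it took 0.185% and 0.225% of all counts in the 2 libraries. At 5 dpf the shares were 0.6% and 0.595%. In 6 dpf fasted wild type they were 1.8% and 1.75%. The share was thus higher at each age from 4 to 6 dpf with no overlap between groups, though only the 6 dpf larvae were fasted.

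The highest shares, 2.16% and 2.13%, stood in 7 dpf fasted livers. In 7 dpf fed livers ucp1 took 0.295% and 0.265%, and in the fed ventral group 0.252% and 0.289%. The fed groups overlapped each other and lay above both 4 dpf libraries and below every library of the other groups. The GCaMP libraries, at 1.45% and 1.46%, lay below the wild type of the same age, and the ethanol libraries, at 1.01% and 1.01%, lay lower still.

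By number of counts, which also grows with transcript length, ucp1 ranked between 5 and 73 among all features of a library. It ranked 5 in both 6 dpf fasted libraries and 6 in both 7 dpf fasted ones. Its lowest ranks, 73 and 54, were those of 4 dpf. At these depths counting error was small, as the exact 95% binomial interval at 4 dpf replicate 1, the library with the fewest ucp1 counts (43502), ran from 0.184% to 0.187%. Such intervals cover counting error only, and they are too narrow if each read of a pair was counted.

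**Figure D1:**
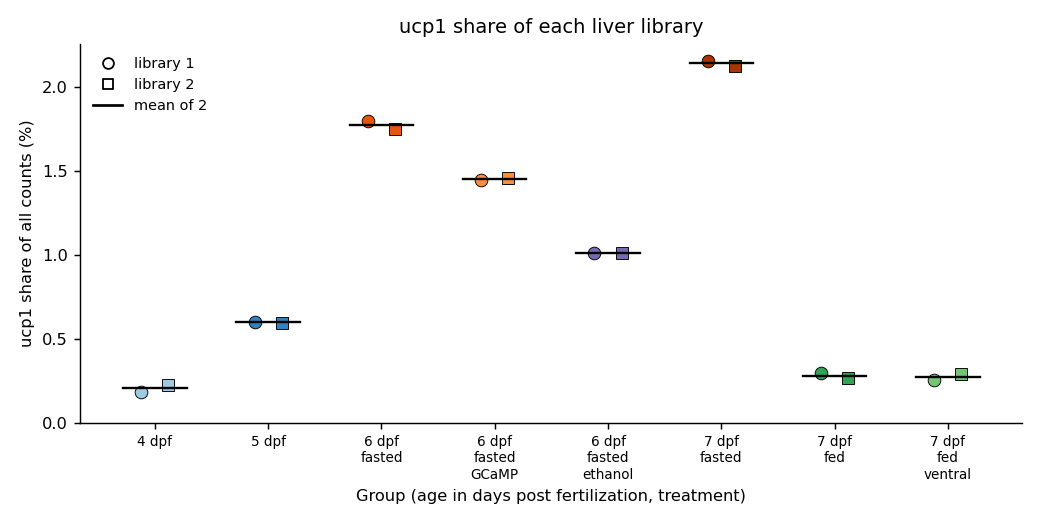
Share of all counts taken by ucp1 (%, vertical axis, from 0) in each of the 16 libraries by group, with circles and squares for the 2 libraries of a group and a line at their mean. The 7 dpf fasted libraries stand highest at 2.16% and 2.13%, and the 4 dpf libraries lowest at 0.185% and 0.225%.

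Levels were also expressed as CPM, the usual scaling of counts to a common library size, here with TMM factors, which sets the bulk of genes level between libraries. On this scale ucp1 stood at 1767 ± 326 CPM at 4 dpf, 6819 ± 99.7 CPM at 5 dpf and 19202 ± 1161 CPM in 6 dpf fasted wild type (mean ± SD, n = 2 each here and below). It stood at 23434 ± 1162 CPM in 7 dpf fasted livers and at 2675 ± 379.5 CPM in 7 dpf fed livers. The ethanol group had 7954 ± 169 CPM, the GCaMP group 16582 ± 1054 CPM and the fed ventral group 2755 ± 191 CPM. From high to low the order was 7 dpf fasted, 6 dpf fasted, GCaMP, ethanol, 5 dpf, fed ventral, fed and 4 dpf. The neighbours fed ventral and fed overlapped, while all other neighbours in this order were apart by more than the larger of their SDs.

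Of the 7 comparisons made, fed against fasted at 7 dpf had the largest difference in ucp1. The 4 dpf and 7 dpf fasted groups stood further apart but were not among these comparisons. At 7 dpf its CPM was 8.76-fold lower in fed than in fasted livers, a log2 difference of -3.13. Among the 17799 genes tested, 462 had a larger absolute log2 difference in this comparison, which is 2.6%. A level at least 2-fold lower was found for 14.9% of all genes tested, so differences of this direction were common between fed and fasted livers.

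The steps between ages without feeding showed higher ucp1 each time. Since only the 6 and 7 dpf larvae of these steps were fasted, age and fasting cannot be told apart from 5 dpf on. From 4 to 5 dpf the log2 difference was 1.95, where 6.32% of all genes were at least 2-fold higher and 2.3% had a larger absolute difference. From 5 dpf to 6 dpf fasted it was 1.49, where 7.94% of genes were at least 2-fold higher. The step from 6 to 7 dpf fasted was smaller at 0.29, and 53.3% of all genes differed more. With scaling by library size alone the step from 4 to 5 dpf was 1.54, and all genes together then had a median of -0.34 in place of 0.06.

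With ethanol, ucp1 was 2.41-fold lower than in 6 dpf fasted livers without it, a log2 difference of -1.27. At least 2-fold lower levels were found for 9.97% of all genes in that comparison. Scaling by library size alone gave -0.81, less than 2-fold, and put the median log2 fold change of all genes at 0.45 in place of 0. The GCaMP livers differed from wild type by -0.21, where 54.4% of genes differed more. The ventral and the other fed livers differed by 0.04, within the spread between replicates (0.23, the SDs of both groups on the log2 scale combined). The comparisons with ethanol, GCaMP, 5 dpf and 7 dpf fasted share the 6 dpf fasted wild-type libraries.

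The hepatocyte marker list, taken as a sum, differed in the other direction with feeding. Its share of counts was 18.9% to 20.2% in fed livers and 9.06% to 9.8% in fasted livers at 7 dpf. Per 1000 counts of these markers there were 14.6 and 14 ucp1 counts in fed livers and 220.3 and 235 in fasted livers. At 6 dpf there were 139 and 135 without ethanol, 82 and 90.5 with it, and 102 and 106 in GCaMP. Not every gene of the list followed its sum. fabp10a, a fatty acid binding protein of hepatocytes, took 0.625% and 0.593% in fed and 0.805% and 0.67% in fasted livers at 7 dpf. Per fabp10a count there were 0.471 and 0.447 ucp1 counts in fed livers and 2.68 and 3.18 in fasted livers. Set against fabp10a alone, the order at 6 dpf differed. Ethanol libraries had 2.58 and 2.7 ucp1 counts per fabp10a count, which overlapped the 2.64 and 2.37 of 6 dpf fasted wild type, while GCaMP libraries, which carry that gene's promoter in the transgene, had 1.49 and 1.73. These ratios were chosen after the values were seen.

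Other markers differed between the same groups. Between 7 dpf fed and fasted livers, red blood cell markers took 0.0614% to 0.0795% against 0.00075% to 0.00199%, with hbaa1 and hbba1 at 0 in both groups. Endothelial markers took 0.0258% to 0.0263% against 0.0791% to 0.102%. Biliary markers took 0.0596% to 0.0627% when fed and 0.191% to 0.197% when fasted, and pancreas markers 0.194% to 0.215% and 0.488% to 1.03%. Intestine markers took 0.262% to 0.291% when fed and 0.0703% to 0.0747% when fasted, and leukocyte markers 0.00586% to 0.00667% and 0.00058% to 0.00226%. Skin markers took 0.0304% to 0.0405% when fed and 0.133% to 0.135% when fasted. At 6 dpf skin markers took 0.0794% to 0.0903% with ethanol and 0.413% to 0.542% without. Their part in the ucp1 differences was not tested.

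ucp1 also stood out among mitochondrial carriers by count. Taken with the 56 genes whose symbol starts with slc25a and with ucp2 and ucp3, it held 75.5% and 76.1% of the counts in 7 dpf fasted livers and 73.3% and 74.1% in 6 dpf fasted wild type. It held 22.4% and 26% at 4 dpf and 30.1% and 28.8% in fed livers. In the 4 dpf, fed and fed ventral libraries 1 slc25 gene had more counts than ucp1, and in the other 5 groups none had. Counts were not divided by transcript length, so these shares describe reads rather than molecules.

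ucp2 was far scarcer in counts and had its highest level with ethanol. Its levels were 29.5 and 34.5 CPM at 4 dpf and 35.2 and 75.4 CPM at 5 dpf. In 6 dpf fasted wild type they were 156 and 149 CPM, and in GCaMP 148 and 127 CPM. The 5 dpf libraries stood far apart, with 699 and 1548 counts, and the GCaMP libraries lay just below both of wild type.

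With ethanol ucp2 stood at 293 and 328 CPM, above every other library. In 7 dpf fasted livers it stood at 134 and 155 CPM, in fed livers at 75.6 and 64.4 CPM and in fed ventral livers at 123 and 134 CPM. From high to low the groups ran ethanol, 6 dpf fasted, 7 dpf fasted, GCaMP, fed ventral, fed, 5 dpf and 4 dpf. From 6 dpf fasted to fed ventral each group overlapped the next in this order, and so did fed and 5 dpf, and the means of 5 and 4 dpf were apart by less than the SD at 5 dpf.

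The ethanol livers had 311 ± 24.6 CPM of ucp2 and the 6 dpf fasted livers 153 ± 5.02 CPM, a log2 difference of 1.02. Levels at least 2-fold higher were found for 10.1% of all genes there. The ucp2 difference was 0.94 without ethanol replicate 2, 0.99 without 6 dpf fasted replicate 2, 1.1 without ethanol replicate 1 and 1.48 with scaling by library size alone. Thus ucp2 was higher and ucp1 lower with ethanol under each of these settings, and the size of either depended on the scaling.

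Fed livers had less ucp2 than fasted livers at 7 dpf, with a log2 difference of -1.04, and 31.6% of all genes differed more. The fed ventral livers had more than the other fed livers, 128 ± 8.16 CPM against 70 ± 7.86 CPM. That log2 difference of 0.87 was exceeded by 5.25% of genes, in a comparison where 1.94% of genes were at least 2-fold higher. Leukocyte markers, a cell type in which mammals express Ucp2, took 0.003% to 0.00437% of counts in fed ventral livers and 0.00586% to 0.00667% in the other fed livers, with lyz at 0 in both groups. Pancreas markers took 0.0143% to 0.0475% and 0.194% to 0.215%. The part of these markers in the ucp2 difference was not tested.

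Between 5 dpf and 6 dpf fasted livers, the ucp2 difference of 1.45 rested on which 5 dpf library was used. It was 2.1 without 5 dpf replicate 2 and 1.01 without 5 dpf replicate 1. The difference from 4 to 5 dpf was 0.78, and it was 0.14 and 1.22 on leaving out the same libraries. From 6 to 7 dpf fasted it was -0.08, and the libraries overlapped.

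ucp3 was counted in fasted livers and hardly elsewhere. The 6 dpf fasted wild-type libraries had 102 and 133 counts, the GCaMP libraries 84 and 68, the ethanol libraries 85 and 36 and the 7 dpf fasted libraries 57 and 64. At 4 dpf the libraries held 4 and 0 reads of ucp3, and those of 5 dpf held 4 and 0 as well. Fed libraries held 0 and 0, and fed ventral libraries 1 and 4. Every library labelled as fasted lay above every other library.

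In CPM ucp3 stood at 5.74 ± 1.5 in 6 dpf fasted wild type, 3.87 ± 0.196 in GCaMP, 2.9 ± 0.535 in 7 dpf fasted and 1.8 ± 0.761 in ethanol livers. Neighbours in this CPM order did not overlap, but by share of counts 7 dpf fasted and ethanol livers did. Exact binomial intervals of the share, which cover counting error only, overlapped for every pairing of GCaMP and 7 dpf fasted libraries. The interval of 6 dpf fasted replicate 1 (0.000343% to 0.000511%) overlapped both GCaMP intervals. That of 6 dpf fasted replicate 2 (0.000544% to 0.00077%) lay above both. The 4 groups below these fasted groups, fed ventral, 5 dpf, 4 dpf and fed, overlapped each other in turn. A count of 3, taken as the floor of detection, corresponds to 0.0826 to 0.165 CPM per library, so levels in those 4 groups lay at or near the floor.

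Set against 3 counts in each fed library, ucp3 was at least 20.8-fold lower in fed than in fasted livers at 7 dpf. If each read of a pair was counted, 3 counts are fewer than 3 fragments and this bound is too high. From 5 dpf to 6 dpf fasted the log2 difference was 3.38 on the scale of log2(CPM + 0.5), which understates the change of a gene this scarce, and 0.41% of genes differed more. With ethanol it was -1.44, and from -1.82 to -1.14 on leaving out 1 library. The step from 6 to 7 dpf fasted was -0.88, and from -1.1 to -0.61 on leaving out 1 library.

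By group means, the ucp3 order of the 4 fasted groups was also that of the skin markers. Of the 9 marker lists, skin alone had this order. By share of counts, the ucp3 libraries of 7 dpf fasted and ethanol overlapped. Skin markers took 0.413% to 0.542% in 6 dpf fasted wild type, 0.34% to 0.363% in GCaMP, 0.133% to 0.135% in 7 dpf fasted and 0.0794% to 0.0903% in ethanol livers. They took 0.0535% to 0.0907% at 5 dpf, where ucp3 had 4 and 0 counts, overlapping the ethanol livers, where it had 85 and 36. In the fed ventral libraries they took 0.0224% to 0.118%, where ucp3 had 1 and 4 counts. All 14 skin markers were counted in every group. A list of 20 skeletal muscle markers, added after the values were seen, took 0.00177% to 0.00566% in 6 dpf fasted wild type and 0.00132% to 0.00689% at 5 dpf. Its share was 0.00167% to 0.00204% in GCaMP, 0.001% to 0.00176% in ethanol and 0.00115% to 0.00604% in 7 dpf fasted livers. In fed ventral livers it was 0.000629% to 0.0219%, in fed livers 0.00109% to 0.00227% and at 4 dpf 0.00292% to 0.00714%. The part of skin or muscle in the ucp3 counts was not tested beyond these values.

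**Figure D2:**
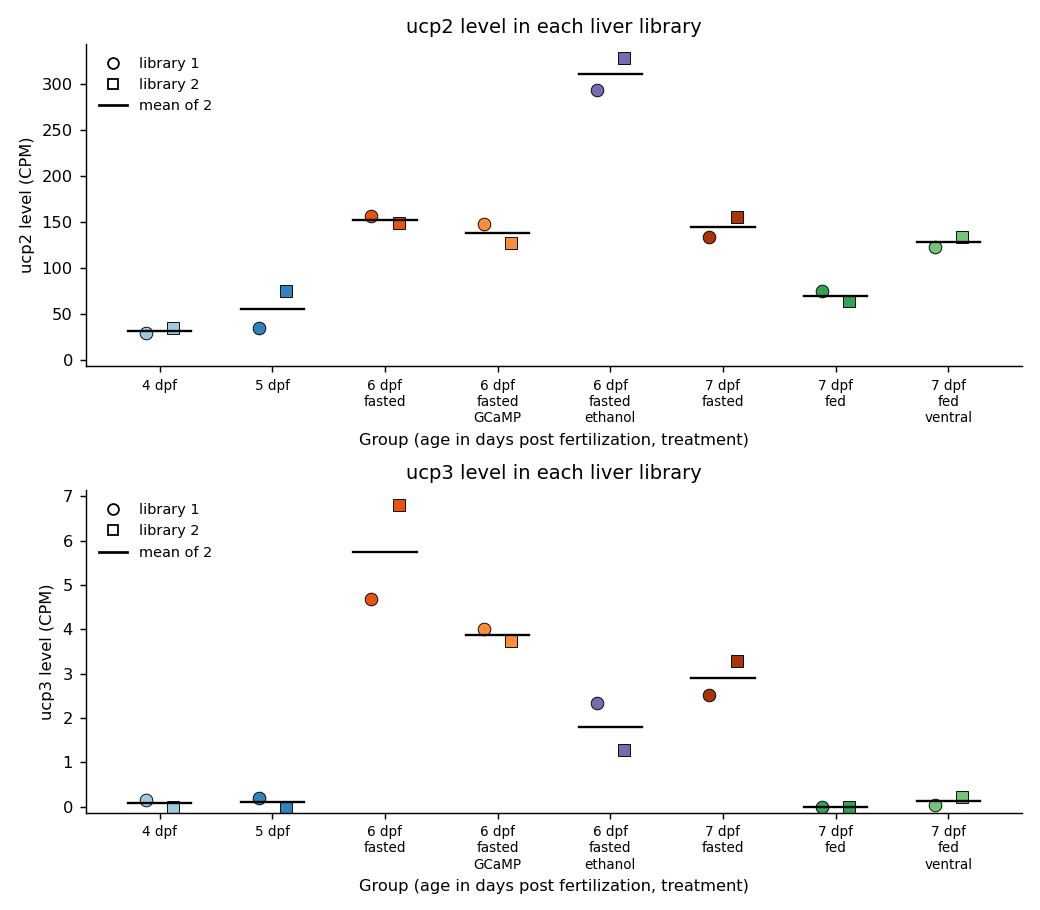
Levels of ucp2 (upper panel) and ucp3 (lower panel) in CPM on linear axes in each library by group, with circles and squares for the 2 libraries and a line at their mean. ucp2 stands highest with ethanol (293 and 328 CPM), and ucp3 is above 1 CPM in the fasted libraries alone.

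Within a library the ratio of ucp1 to ucp2 counts is untouched by any scaling. Since counts were not divided by length, its size has no meaning of its own and its changes between groups carry the comparison. There were 52.1 and 57.9 ucp1 counts per ucp2 count at 4 dpf, and 192 and 91.4 at 5 dpf. The 6 dpf fasted wild type had 128 and 123, GCaMP 117 and 125, and 7 dpf fasted livers 181 and 146. The 5 dpf libraries fell on either side of these 3 fasted groups.

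With ethanol the ratio was 26.7 and 24.6. It was 39 and 37.3 in fed livers and 21.4 and 21.5 in fed ventral livers. These 3 groups lay below all the others and did not overlap one another. The low ratio with ethanol combined lower ucp1 with higher ucp2 than in 6 dpf fasted livers. That of fed livers combined lower levels of both genes than in 7 dpf fasted livers, with ucp1 the more reduced. The fed ventral livers had ucp1 like the other fed livers and more ucp2.

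**Figure D3:**
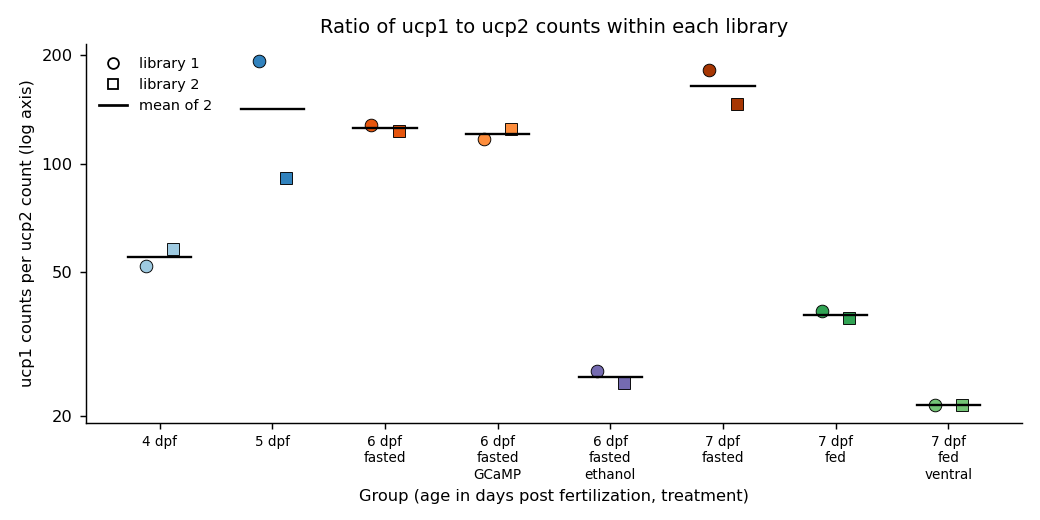
Number of ucp1 counts per ucp2 count (log axis) within each library, by group, with circles and squares for the 2 libraries and a line at their mean. Ethanol, fed and fed ventral libraries lie between 21.4 and 39, and all others lie at 52.1 or above.

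Set side by side, the 3 genes differed in the same direction in some comparisons and not in others. All 3 were lower in fed than in fasted livers at 7 dpf with no overlap of libraries, in a comparison where libraries of 74.8% of all genes did not overlap. All 3 were higher in 6 dpf fasted than in 5 dpf livers without overlap (66.2% of all genes). At 5 against 4 dpf ucp1 and ucp2 were higher without overlap (65.2% of all genes), and ucp3 overlapped. For ucp2 this held in CPM but not by share of all counts. By share, 5 dpf replicate 1 (0.00313%) lay below both 4 dpf libraries (0.00356% and 0.00389%). The ucp2 log2 difference of 0.78 was about the size of its replicate spread (0.78). At 7 against 6 dpf fasted ucp1 was higher and ucp3 lower without overlap (54.2% of all genes), and ucp2 overlapped. With ethanol the libraries of all 3 were again apart (70% of all genes), with ucp1 and ucp3 lower and ucp2 higher. In GCaMP livers all 3 were lower without overlap (44.3% of all genes), with log2 differences of -0.21, -0.15 and -0.52 for ucp1, ucp2 and ucp3. That of ucp2 was within its replicate spread of 0.17. In the ventral livers ucp2 and ucp3 were higher without overlap (41.1% of all genes), but ucp3 rested on 5 counts there against 0.

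**Figure D4:**
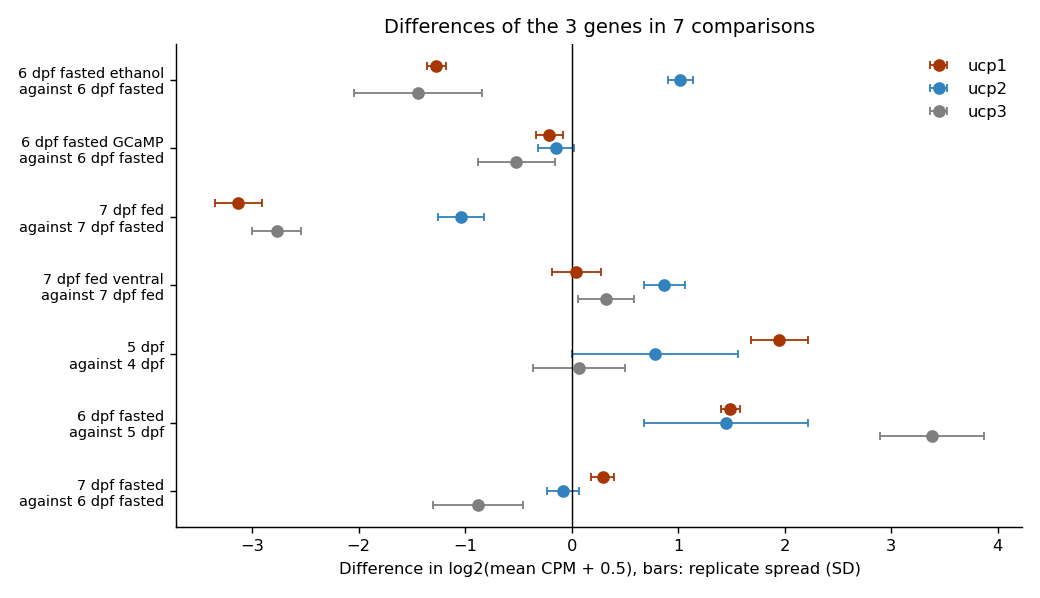
Differences in log2(mean CPM + 0.5) of ucp1, ucp2 and ucp3 (horizontal axis, first-named group minus second) in the 7 comparisons, with bars for the replicate spread, that is, the SDs of both groups combined. In the ethanol comparison ucp2 stands at 1.02 and ucp1 at -1.27, and in the fed comparison all 3 lie at -1.04 or below.

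Genes with the most similar course were found by likeness, the root mean square difference over the 16 libraries of log2(CPM + 0.5) after centring each gene. The nearest to ucp1 of 6504 genes was pah, phenylalanine hydroxylase, at 0.22. pah stood at 287 CPM at 4 dpf, 2492 CPM in 7 dpf fasted and 314 CPM in fed livers. It was followed by rnf25 (0.32), the nucleolar helicase ddx21 (0.33), caprin1b (0.35) and the ribosome assembly factor rsl24d1 (0.35). Nearest to ucp2 were ifrd1 (0.28), nipa2 (0.3), tspan36 (0.34), the amino acid carrier slc43a2a (0.38) and lpar6a (0.38). ifrd1 stood at 379 CPM with ethanol against 212 CPM in 6 dpf fasted livers.

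For ucp3 likeness was weaker, with cbsb of cysteine synthesis at 0.52, the cytokine signalling inhibitor socs2 at 0.53, slc1a5 at 0.55, FOXK2 at 0.56 and rnf25 at 0.56. Among the members ucp1 and ucp3 were at 0.66, with 118 genes nearer to ucp1 than ucp3 was. ucp1 and ucp2 were at 1.11, with 1383 genes nearer. The neighbours ucp2 and ucp3 were at 1.1, with 3401 genes nearer to ucp2 than ucp3 was. The likeness values are descriptions, as genes of a library share its depth and its cells. With at most 6.8 CPM and 0 to 4 counts in the unfasted groups, ucp3 lay below the 10 CPM asked of the other genes. Its likeness values therefore depend in part on the 0.5 CPM added and on counting error.

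**Figure D5:**
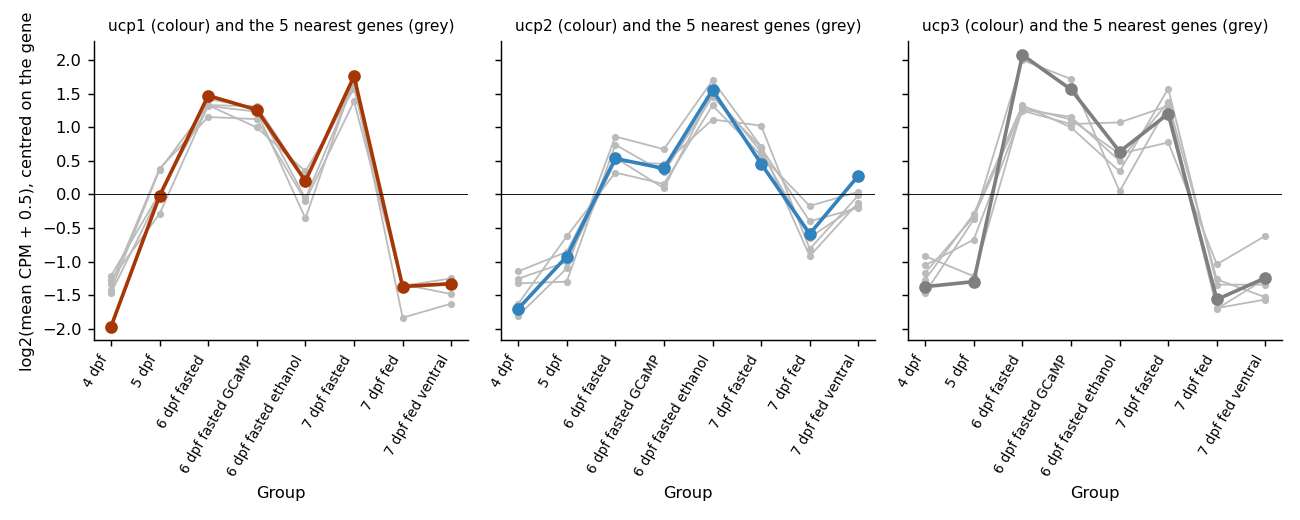
Group means as log2(mean CPM + 0.5), centred on each gene's mean over the 8 groups, for each member (colour, thick line) and its 5 nearest genes (grey). The ucp1 and ucp3 profiles are low in fed groups and high in fasted groups without ethanol. The ucp2 profile peaks with ethanol. On this TMM scale ucp1 with ethanol (7954 CPM) stands closer to 5 dpf (6819 CPM) than to the other fasted groups. This closeness depends on the scaling, as its mean share of counts (1.01%) lies between those of 5 dpf (0.598%) and GCaMP (1.45%).

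Genes around the uncoupling carriers were taken from 7 lists of related carriers, regulators and partners. Of 133 symbols 125 were in the table and 120 passed the filter on low counts. They were tested by edgeR's quasi-likelihood test over all genes, and a gene was called at a Benjamini-Hochberg adjusted p under 0.1 and a fold change of at least 2. Log2 fold changes are given ± standard error. In fed against fasted livers 40 of the 120 rose and 19 fell. Together these are 49.2% of the list, against 37.5% of all genes tested, where 20.7% rose and 16.8% fell. For the single lists below, the shares of all genes called to be set beside are this 37.5% with feeding, 23% with ethanol and 18.2% for 6 dpf fasted against 5 dpf. They are 1.16% for ventral against other fed livers and 0.961% for GCaMP against wild type.

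Of 10 near relatives of the uncoupling carriers, 5 rose and 0 fell with feeding (50% called, median log2 fold change 0.88, against 0 for all genes). slc25a27, the gene of the carrier once named UCP4 and best known from mammalian brain, stood at 18.4 ± 1.6 CPM in fed and 0.982 ± 0.302 CPM in fasted livers. It rose by 4.2 ± 0.26 (edgeR, adjusted p = 1.31e-10), where ucp1 was lower. It also fell from 4 to 5 dpf (-1.03 ± 0.2), from 5 dpf to 6 dpf fasted (-2.24 ± 0.23) and from 6 to 7 dpf fasted (-1.27 ± 0.28), the steps at which ucp1 was higher. With ethanol, where ucp1 was lower, slc25a27 was not called (0.54 ± 0.24, adjusted p = 0.0821 by edgeR), nor was it in GCaMP or ventral livers. The fall from 4 to 5 dpf passed the 2-fold limit in neither fit that left out replicate 2 of 4 or of 5 dpf (-0.89 and -0.92).

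slc25a47a, a relative of the liver-specific mammalian carrier SLC25A47, stood at 24 ± 0.0399 CPM with ethanol and 66.8 ± 6.9 CPM without. It fell with ethanol (-1.48 ± 0.14) and rose from 4 to 5 dpf (1.67 ± 0.14). It was not called at 6 dpf fasted against 5 dpf (0.19 ± 0.14), with feeding (-0.53 ± 0.14) or in the other comparisons. In those named ucp1 differed by 1.49 and -3.13 on the log2 scale. With feeding slc25a47a missed only the 2-fold limit (adjusted p = 0.00352 by edgeR). The same held for slc25a47a from 6 to 7 dpf fasted (-0.46 ± 0.14, adjusted p = 0.032 by edgeR). Its paralogue slc25a47b rose with ethanol (1.85 ± 0.51), the direction opposite to slc25a47a and ucp1. This paralogue was scarce, at 3.99 ± 1.37 CPM with ethanol and 1.11 ± 0.598 CPM without. Values of carriers in comparisons where they were not called were added after seeing the data. Of the 10 related carriers tested 1 rose and 1 fell with ethanol (20% called), and 1 in all was called without 6 dpf fasted replicate 1. At the step from 5 dpf 0 rose and 3 fell (30%). Of 10 nucleotide and phosphate carriers, the family that includes the ADP/ATP translocases, 1 rose and 0 fell with feeding (10%). That gene was slc25a25b, at 1.87 CPM in fed and 0.305 CPM in fasted livers. With ethanol 4 rose and 0 fell (40%), and fewer were called with any 1 library of that comparison left out. The 3 with the largest changes were scarce. slc25a6 stood at 1.29 CPM with ethanol and 0.0919 CPM without, slc25a25b at 1.95 and 0.256 CPM, and slc25a23b at 1.65 and 0.434 CPM. Between 5 dpf and 6 dpf fasted 0 rose and 1 fell (10%), and 2 were called without 5 dpf replicate 2 or without either 6 dpf fasted library.

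Subunits and inhibitors of ATP synthase, which uses the proton gradient that uncoupling carriers of mammals dissipate, rose in fed livers for 10 of 14 genes and fell for 0 (71.4% called, median 1.59). atp5mc1, of the membrane ring, stood at 464 ± 78 CPM when fed and 24.6 ± 0.476 CPM when fasted. At 6 dpf fasted against 5 dpf 0 rose and 4 fell (28.6%, median -0.91), and atp5mc1 stood at -2.52 ± 0.18. With ethanol 1 rose and 0 fell (7.14%), and that gene was atp5mc1 (2.02 ± 0.18). Scaling by library size alone gave 4 called with ethanol.

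Of 22 genes that supply fatty acids to mitochondria 11 rose and 4 fell with feeding (68.2% called, median 1.53). At 6 dpf fasted against 5 dpf 3 rose and 7 fell (45.5%, median 0.09), and with ethanol 2 rose and 5 fell (31.8%, median -0.55). Of these genes acsl4a fell with feeding (-4.08 ± 0.44), rose at 6 dpf fasted against 5 dpf (5.31 ± 0.5) and fell with ethanol (-2.26 ± 0.4). In contrast, cpt2 rose with feeding (6.58 ± 0.24) and fell at 6 dpf fasted against 5 dpf (-4.27 ± 0.21). cpt1b, a carnitine transferase of the outer membrane, rose with feeding (3.85 ± 0.16). In GCaMP against wild type both cpt1b (1.89 ± 0.15) and cpt2 (1.6 ± 0.21) rose. cpt1b also rose in ventral against other fed livers (1.23 ± 0.14). In that comparison 2 genes of the list rose, and 1 was called on leaving out any 1 of the 4 libraries. Of 13 genes that remove superoxide and peroxide 7 rose and 2 fell with feeding (69.2%, median 1.36), with the mitochondrial peroxidase gene prdx3 at 2.93 ± 0.15. With ethanol 3 rose and 3 fell (46.2%), among them gpx1b (2.21 ± 0.22) and catalase, cat (-2.39 ± 0.12), and 3 in all were called without 6 dpf fasted replicate 1. From 5 dpf to 6 dpf fasted 0 rose and 5 fell (38.5%).

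Regulators known to act on uncoupling genes in mammals were called with feeding and at the step from 5 dpf no more often than all genes. With feeding 4 of 37 rose and 8 fell (32.4%, median -0.16). The deacetylase sirt1 fell (-2.74 ± 0.19) and hnf4b rose (2.61 ± 0.17). From 5 dpf to 6 dpf fasted 5 rose and 1 fell (16.2%). Among them were foxo1a at 2.39 ± 0.2, hnf4b at -2.19 ± 0.17 and the coactivator ppargc1a at 2.01 ± 0.23. With ethanol 2 rose and 10 fell (32.4%), and foxo1a was among those that fell (-1.64 ± 0.2). In ventral against other fed livers 1 rose and 0 fell (2.7%, against 1.16% of all genes), and this was the coactivator ppargc1b (1.26 ± 0.14). There 2 were called without fed replicate 1, without fed ventral replicate 1 and with scaling by library size alone.

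Of 14 genes of hormone and amine inputs 2 rose and 5 fell with feeding (50%, median -0.62). dio3b, which inactivates thyroid hormone, stood at 45.3 ± 20.7 CPM in fed and 450 ± 25.8 CPM in fasted livers. It rose from 5 dpf to 6 dpf fasted (3.45 ± 0.59) and from 4 to 5 dpf (2.85 ± 0.61). Another deiodinase gene, dio2, was scarcer and rose with feeding (7.41 ± 0.78), at 4.97 CPM in fed and 0.0256 CPM in fasted livers. From 5 dpf to 6 dpf fasted dio2 fell (-5.41 ± 0.61). With ethanol 2 rose and 2 fell (28.6%), among them the leptin receptor lepr (2.09 ± 0.23) and the thyroid deiodinase dio1 (-1.8 ± 0.11), and 2 in all were called without ethanol replicate 2. At 6 dpf fasted against 5 dpf 2 rose and 3 fell (35.7%).

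Over all 7 lists 15 of 120 rose and 21 fell with ethanol. That is 30% called, against 23% of all genes, of which 11.8% rose and 11.1% fell. Fewer of the 120 were called with any 1 library of that comparison left out. At 6 dpf fasted against 5 dpf 10 rose and 24 fell, or 28.3%, against 18.2% of all genes (7.98% higher and 10.2% lower). At 5 against 4 dpf 17 rose and 9 fell, or 21.7%, against 14.9% of all genes (7.44% higher and 7.42% lower). Here too fewer were called with any 1 library of the comparison left out. Between 6 and 7 dpf fasted 3 rose and 8 fell, or 9.17%, against 6.81% of all genes (2.69% higher and 4.12% lower), and 5 in all were called without 6 dpf fasted replicate 1. In GCaMP against wild type 2 rose and 0 fell, or 1.67%, against 0.961% of all genes (0.714% higher and 0.247% lower). Ventral against other fed livers gave 3 that rose and 1 that fell, or 3.33%, against 1.16% of all genes (0.5% higher and 0.663% lower). The comparisons that use the 6 dpf fasted wild type share its libraries, and p-values measure the spread between libraries only. These lists were drawn from general knowledge with earlier results of these data known.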

How the data were processed

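RNA came from dissected livers and was made into directional libraries, per the labels' protocols, and sequenced as read pairs. HISAT2, featureCounts and the build GRCz11 are named in the submitters' processing notes, without their versions. The strand setting and the annotation used were not given in the sources used here. Raw counts per gene, with no normalization, are what the authors deposited. Between 70.3% and 77.8% of the counts from 1 to 50 in a library were even, against 50.9% to 56.2% of those over 1000, so each read of a pair may have been counted. The limits on calls follow the series design text, which names iDEP 0.951.

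Shares were computed as counts over all counts of a library, and CPM with TMM factors of 0.837 to 1.3. Differences of the members are in log2(mean CPM + 0.5). edgeR 4.0.16 in R 4.3.3 fitted all 16 libraries with a coefficient per group, robust quasi-likelihood and 8 residual degrees of freedom, for 17799 genes kept by its filter on low counts. The fits were tested on simulated data. Named genes are the members, examples from up to 3 called genes per list and comparison with the largest fold changes, and the 5 genes nearest to each member among those averaging at least 10 CPM. With 2 libraries a group, an exact permutation test could not reach a p below 0.333. Alternatives were RLE or no scaling, no filter, DESeq2 1.42.0, halved counts, a replicate block and leaving out each library. Members and lists were chosen with earlier results of these data known.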

Additional observations from a re-analysis of the deposited data

How the results depend on the processing

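With genes of the mitochondrial genome left out of the total, the ucp1 share was 0.641% at 5 dpf, 1.92% in 6 dpf fasted, 1.53% in GCaMP, 1.11% in ethanol and 2.41% in 7 dpf fasted livers, and it moved by less than the replicate SD in the other 3 groups. With scaling by library size alone the ucp1 log2 difference was -0.81 with ethanol and 1.54 from 4 to 5 dpf. Under RLE scaling the differences of all 3 members moved by less than the replicate spread. Leaving out 1 library gave ucp1 differences of -1.33 to -1.21 with ethanol, -3.28 to -2.99 for fed against fasted, 1.77 to 2.15 from 4 to 5 dpf and 1.43 to 1.55 from 5 dpf to 6 dpf fasted. With no filter on low counts 6 related genes were called in GCaMP against wild type and 9 in ventral against fed livers, where the filtered fits called 2 and 4, and the cause was not tested. Leaving out 1 library gave 5 to 11 called from 6 to 7 dpf fasted. RLE scaling, library size alone, halved counts and DESeq2 kept each comparison's number over all lists within 1.5 times. Replicate numbers in the labels are not stated to mark pairs, and same-numbered libraries of the groups compared correlated at -0.0965 to 0.111 in their deviations. With the replicate block 36 related genes were called with ethanol, 60 with feeding, 5 in ventral, 2 in GCaMP, 26 from 4 to 5 dpf, 34 from 5 to 6 dpf and 11 from 6 to 7 dpf. With 2 libraries a group and counts of 0 to 4, ucp3 differences among unfasted groups were not detectable at this depth.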
